A study of Mus musculus with 12 samples.

Results

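Zfp36, Zfp36l1, Zfp36l2, Btg1, Btg2, Btg3, Tob1 and Tob2 encode the TTP family and the BTG/TOB family of mRNA decay regulators. They were selected by symbol and are 8 of the 15795 gene symbols with a read in at least 1 library. All 8 had reads in all 12 libraries, while their relatives Zfp36l3, Btg4, Btg1b and Btg1c had a read in none. Ribosome profiling and RNA-seq were performed in KPC cells, a mouse PDAC line from tumors of mice with alleles that include Trp53 LSL-R172H and Pdx1-Cre, whose Cre is driven by the promoter of a pancreatic progenitor gene, so that every group carried these alleles. Cells received PBS (labelled as without treatment) or 20 μM Cis (cisplatin, a platinum drug that crosslinks DNA) for either 6 or 21 h, and each treatment has 2 footprint and 2 RNA-seq libraries. The duration of PBS is not labelled, both time points are compared with the same PBS libraries, and the line is the only model used. The labels do not say that replicate libraries came from separate cultures, so p-values measure only the spread between these libraries, which may be technical.

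TTP, the product of Zfp36, and its relatives are zinc finger proteins that bind AU-rich elements in the 3′ untranslated region of short-lived mRNAs, many of which encode cytokines and growth regulators. They recruit the CCR4-NOT complex, which shortens the poly(A) tail, and the mRNA is then decapped and degraded. BTG and TOB proteins have no RNA-binding domain of the zinc finger kind. They hold the deadenylases Cnot7 and Cnot8 with a shared N-terminal domain, contact the poly(A)-binding protein Pabpc1, and are known for restraining cell proliferation. Zfp36 and Btg2 are classical immediate early genes, and Btg2 is also a textbook p53 target. The product of Trp53 is p53, and the mice behind this line carried its mutant R172H allele. A part of p53 in the Btg2 values was not tested.

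Footprints, the mRNA fragments protected by ribosomes, measure how much of a coding sequence is being translated, RNA-seq measures the level of the mRNA, and their ratio is the translation efficiency (TE). Values are RPKM, reads per kilobase of coding sequence (footprints) or transcript (RNA) and per unit of library total. They are relative within a library, so total RNA or translation per cell, and the number of cells, cannot be told apart. Footprint libraries held 3375480 to 5204127 reads and RNA-seq libraries 862476 to 1341584 reads outside Lars2, Tmem38b and Mettl26, which took 51.8 to 56.6% of the RNA-seq reads and thereby lower the RNA RPKM of every other gene. All 7 pancreatic ductal epithelium markers were detected, with Krt8 footprints at up to 4949 RPKM, although Epcam stayed at or below 1.83 RPKM in footprints. Ptprc, Pecam1 and Pdgfra, which define leukocytes, endothelium and fibroblasts, stayed at or below 0.54 RPKM, and of 21 markers of these and of acinar cells 15 stayed below 1 RPKM in footprints. The others reached more, namely Col3a1 (up to 8.09 RPKM), Col1a1 (1.71) and Dcn (1.62) of fibroblasts, Cd68 (5.40) and Lyz2 (4.28) of leukocytes, and Cela1 (6.12) of acinar cells. A log2 fold change is from limma on log2(RPKM + 0.5) after scaling between libraries, which understates the change of weakly expressed genes, and a gene was called at a Benjamini-Hochberg adjusted p under 0.05 over all transcripts tested.

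Btg2 and Zfp36 had the largest rises of the 8 members, and the bases upstream of their start sites are shown because each holds a stimulus response motif that was found in none of the other members with a window. The sequences are RefSeq promoter windows on GRCm38.p6, while the libraries were aligned to GRCm39, and they are printed 5′ to 3′ on the strand of the gene, ending at the base before the start site. In the Zfp36 window the capitals mark a CArG box, the motif read by serum response factor, which begins 58 bases upstream of the start site. In the Btg2 window the capitals mark the palindromic cAMP response element TGACGTCA, read by CREB and ATF factors, which begins 166 bases upstream.
Zfp36, chr7:28379229-28379478, minus strand: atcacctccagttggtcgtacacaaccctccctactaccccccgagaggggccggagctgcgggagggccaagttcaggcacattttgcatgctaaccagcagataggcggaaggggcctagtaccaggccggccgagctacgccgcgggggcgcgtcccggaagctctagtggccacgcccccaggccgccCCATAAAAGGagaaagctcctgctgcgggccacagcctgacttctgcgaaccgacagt
Btg2, chr1:134079156-134079405, minus strand: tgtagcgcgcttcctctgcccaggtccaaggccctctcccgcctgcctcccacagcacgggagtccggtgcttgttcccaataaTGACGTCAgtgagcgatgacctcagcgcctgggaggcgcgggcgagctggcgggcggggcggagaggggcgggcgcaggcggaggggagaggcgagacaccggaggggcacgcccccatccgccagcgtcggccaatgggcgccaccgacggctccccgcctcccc

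Windows were found for 7 of the 8 members, not for Zfp36l2. The motifs were chosen after the sequences were seen, on both strands and in the 250 upstream bases. A CArG box was held by 1.47% of the 32851 windows of all genes and by Zfp36 alone among the members. The element TGACGTCA was held by 1.55% of all windows and by Btg2 alone. The AP-1 site TGANTCA (6.75% of all windows) was in Zfp36l1 alone, and an NF-kB site (5.93%) in Btg3 alone. A response motif found in no other member is therefore not particular to Zfp36 and Btg2. TATAAA (12.4%) was in Btg1, Tob1 and Zfp36l1, and the GC box GGGCGG (32.7%) in 6 members, in Zfp36 sharing 1 base with the CArG box. A match of letters is a description of the window and not of a bound site.

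In PBS-treated cells the 8 members spanned a wide range of footprint levels. Btg1 was the highest at 109.8 ± 16.3 RPKM (mean ± SD, n = 2), followed by Tob1 at 88.6 ± 9.34. Btg3 and Zfp36l2 came next at 50.7 ± 4.21 and 47.4 ± 3.20 RPKM, and their libraries overlapped, so their order is not resolved. Tob2 followed at 30.1 ± 0.292, Zfp36l1 at 17.3 ± 1.06, Btg2 at 5.76 ± 0.459 and Zfp36 at 4.23 ± 0.270 RPKM, each below the one before in every PBS library.
In RNA the order differed at the top. Zfp36l2 had the highest RNA level, 46.1 ± 0.0414 RPKM, at the 94.5th percentile of transcripts, against the 77.1st for its footprints. The RNA levels of Tob1, Btg1 and Btg3 overlapped as neighbours (18.5 ± 3.38, 16.1 ± 1.88 and 14.8 ± 1.08 RPKM). Btg2 at 1.69 ± 0.0920 and Zfp36 at 1.15 ± 0.228 RPKM were again the lowest, on means of 12.5 and 8.5 reads. At 21 h Zfp36 was still the lowest member in both assays, while Btg2 footprints overlapped those of Zfp36l1 and had moved from the 37.6th to the 76.8th percentile.

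**Figure D1:**
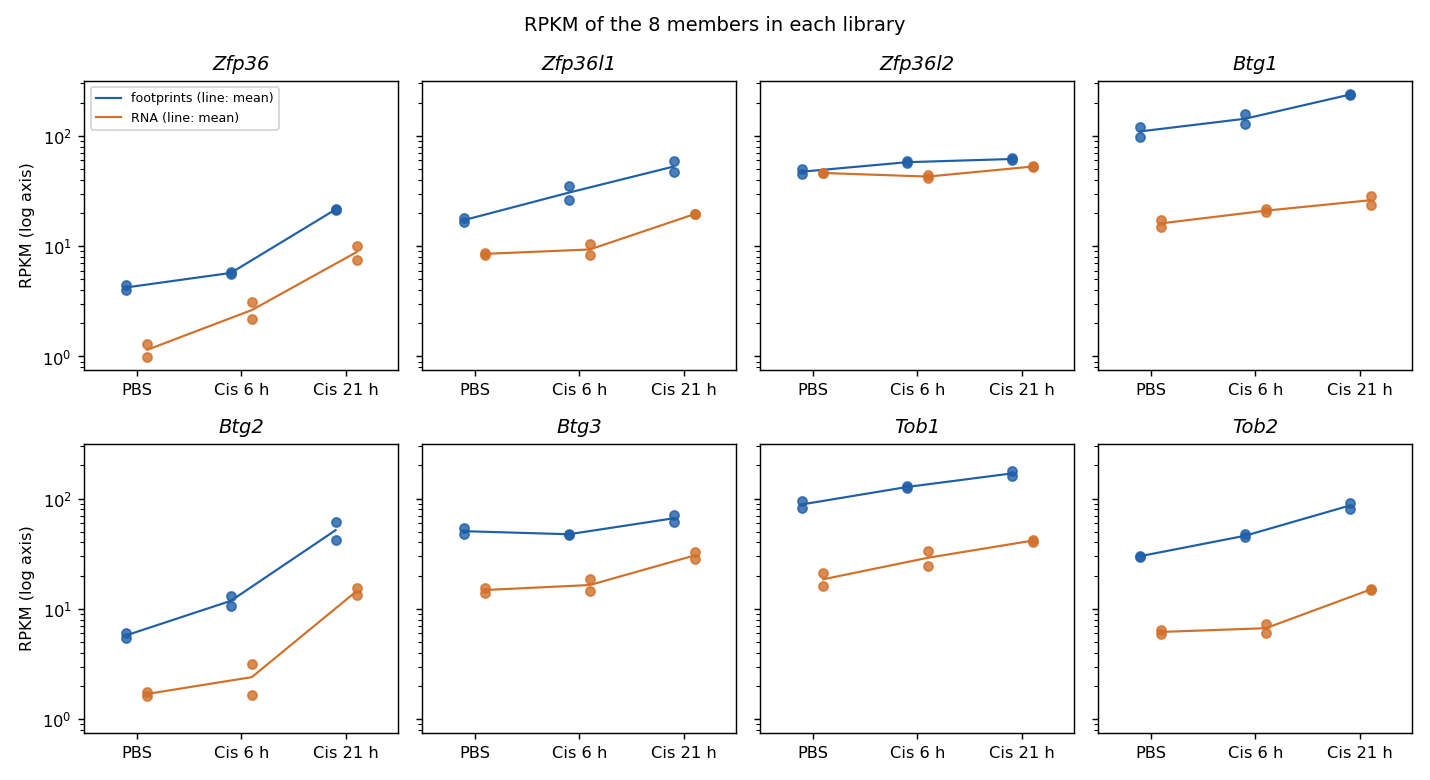
RPKM on a log axis for each member (panels) in each library (points) with PBS, Cis for 6 h and Cis for 21 h, with lines through the means of footprints (blue) and RNA (orange, n = 2 per group). Btg2 footprints rise from 5.43 and 6.08 RPKM to 41.8 and 61.6, whereas Zfp36l2 RNA stays between 41.2 and 53.3 RPKM.

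At 21 h against PBS, all 8 members had more footprints, whereas 18.9% of the 10383 transcripts tested were called higher and 20.2% lower (39.1% in either direction). The rises ranged from 0.34 for Zfp36l2 to 3.00 for Btg2, and the median over the members was 1.27 on the log2 scale, beside 0.0063 over all transcripts. In RNA, 7 of the 8 members were called higher, where 23.8% of 9443 transcripts were called (11.6% higher and 12.2% lower), and the median over the members was 1.07 beside 0.017. No member was called lower in either assay.
At 6 h against PBS, 2 members, Tob1 and Tob2, were called higher in footprints, where 2.04% of all transcripts were called (1.05% higher). None was called in RNA, where the background was 0%, with 1086 of 9443 transcripts at an unadjusted p under 0.05, among them Tob1, Zfp36 and Btg1. With limma's voom on the reads recovered from the RPKM values, 2 members, Tob1 and Btg1, were called in RNA at 6 h, beside 2.43% of all transcripts by the same method, and the log2 fold changes were 0.71 (adjusted p = 0.0019) and 0.44 (adjusted p = 0.0266).

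**Figure D2:**
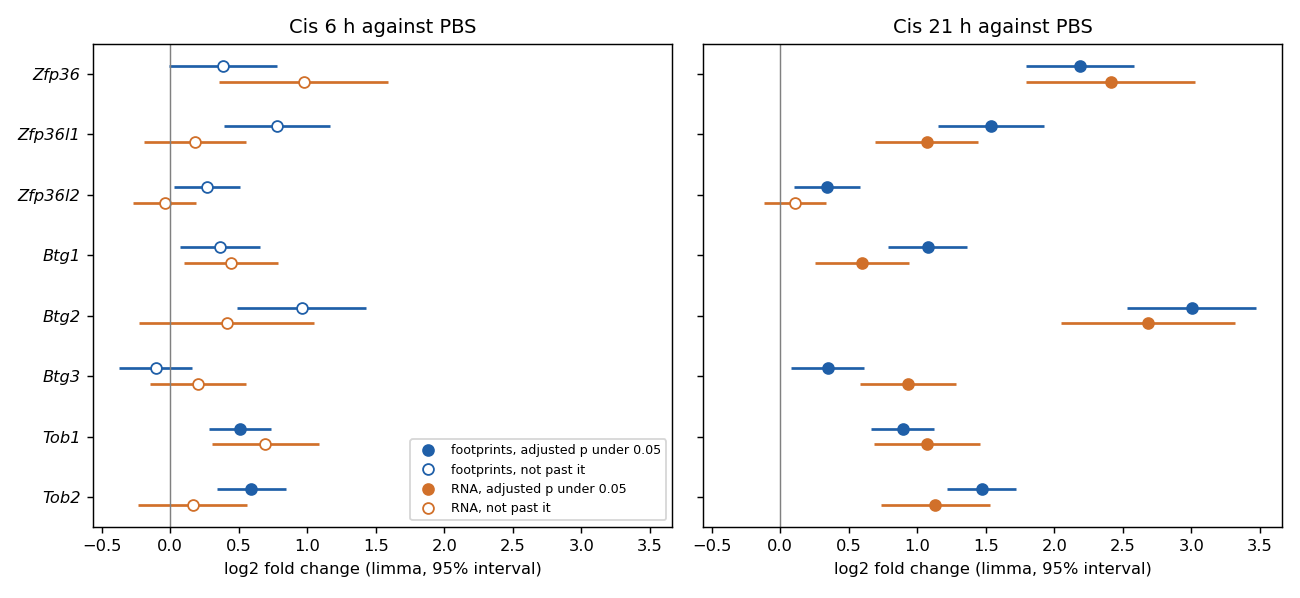
Log2 fold change against PBS (x axis, points with 95% intervals from limma) of each member in footprints (blue) and RNA (orange) at 6 h (left) and 21 h (right), filled where the adjusted p is under 0.05. At 21 h 15 of the 16 points are filled, and the open one is Zfp36l2 RNA at 0.11.

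Zfp36 (ENSMUSG00000044786), the gene of TTP itself, had footprints of 4.42 and 4.04 RPKM with PBS, 5.57 and 5.88 at 6 h, and 21.8 and 21.2 at 21 h. The libraries at 6 h lay only slightly above PBS, and those at 21 h stood far above all the others. The log2 fold change was 0.38 at 6 h (adjusted p = 0.241) and 2.19 at 21 h (SE 0.17, adjusted p = 5.83e-05), a 4.55-fold rise that ranked 35th from the top. Zfp36 RNA was 1.31 and 0.988 RPKM with PBS, 2.17 and 3.10 at 6 h, and 7.54 and 10.1 at 21 h. These groups did not overlap, although the PBS values rest on 9 and 8 reads. The log2 fold change of the RNA was 0.97 at 6 h (adjusted p = 0.284) and 2.41 at 21 h (SE 0.27, adjusted p = 0.000466). The transcript listed for Zfp36 is 2790 nt long, longer than the 2445 nt that RefSeq gives for the gene, which bears on its RNA level per length and its TE. The length itself cancels in the RNA change, but where on this transcript the RNA reads lie was not examined.

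Zfp36l1 (ENSMUSG00000021127), a relative known for binding AU-rich mRNAs of cell cycle and differentiation genes, had footprints of 18.0 and 16.5 RPKM with PBS, 34.9 and 26.3 at 6 h, and 58.9 and 46.6 at 21 h. The groups formed separate steps, with a wider gap between the replicates after Cis. The change at 6 h, 0.78 on the log2 scale, just missed the threshold (SE 0.17, adjusted p = 0.0543), and it was called in 6 of its 16 alternatives (adjusted p from 0.0028 to 0.245). At 21 h the rise was 1.54 (SE 0.17, adjusted p = 0.000277). Zfp36l1 RNA was 8.29 and 8.76 RPKM with PBS, 8.25 and 10.4 at 6 h, and 19.4 and 19.7 at 21 h. In RNA 1 of the 6 h libraries lay at the PBS level and the other above it, and the 21 h libraries were well apart. The log2 fold change of the RNA was 0.18 at 6 h (adjusted p = 0.715) and 1.07 at 21 h (SE 0.17, adjusted p = 0.0021).

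Zfp36l2 (ENSMUSG00000045817), the most abundant TTP family mRNA here, had the smallest RNA change of the members at both times, and in footprints at 21 h it rose about as little as Btg3 (0.34 and 0.35). Its footprints were 45.1 and 49.6 RPKM with PBS, 56.5 and 59.0 at 6 h, and 60.7 and 62.7 at 21 h. Both Cis groups lay above PBS, and the 6 h and 21 h libraries were close to each other. The rise at 21 h was 0.34 on the log2 scale (95% interval 0.10 to 0.59, adjusted p = 0.0322). This call was lost in 8 of 16 alternatives, among them leaving out PBS replicate 1 (0.25, adjusted p = 0.16), 6 h replicate 1 (0.34, adjusted p = 0.0561), 6 h replicate 2 (0.34, adjusted p = 0.0567), 21 h replicate 1 (0.38, adjusted p = 0.0613) or 21 h replicate 2 (0.33, adjusted p = 0.0987). Its RNA was 46.1 and 46.1 RPKM with PBS, 41.2 and 44.3 at 6 h, and 52.2 and 53.3 at 21 h, and the scaled change at 21 h was 0.11 (95% interval -0.12 to 0.34, adjusted p = 0.484). The smallest RNA rise of the other members at 21 h was 0.60 for Btg1 (95% interval 0.25 to 0.94). The intervals of these 2 genes overlap, and the difference between members was not tested.

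The make-up of the TTP family differed between PBS and 21 h. With PBS, Zfp36l2 held 66.8 and 70.7% of the summed footprint RPKM of the 3 genes, Zfp36l1 26.7 and 23.5%, and Zfp36 6.54 and 5.75%. At 21 h Zfp36l2 held 42.9 and 48.0%, Zfp36l1 41.6 and 35.7%, and Zfp36 15.4 and 16.3%. The shares of each gene did not overlap between PBS and 21 h, and the summed footprints of the family went from 68.9 ± 1.87 to 136.0 ± 7.69 RPKM (mean ± SD, n = 2). In RNA, where Zfp36l2 held more of the total, its share went from 82.7 ± 0.172% to 65.0 ± 1.30%, and that of Zfp36 from 2.06 ± 0.411% to 10.9 ± 1.87%. Shares are a description of levels per length and were not tested.
Within the BTG/TOB family the summed footprints went from 284.9 ± 30.6 RPKM with PBS to 375.7 ± 22.4 at 6 h and 610.0 ± 18.9 at 21 h. Btg1 kept a similar share, 38.5 ± 1.59% with PBS and 38.8 ± 0.669% at 21 h. Btg2 went from 2.02 ± 0.0563% to 8.44 ± 2.04%, and Btg3 from 17.8 ± 0.436% to 10.9 ± 0.889%.

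**Figure D3:**
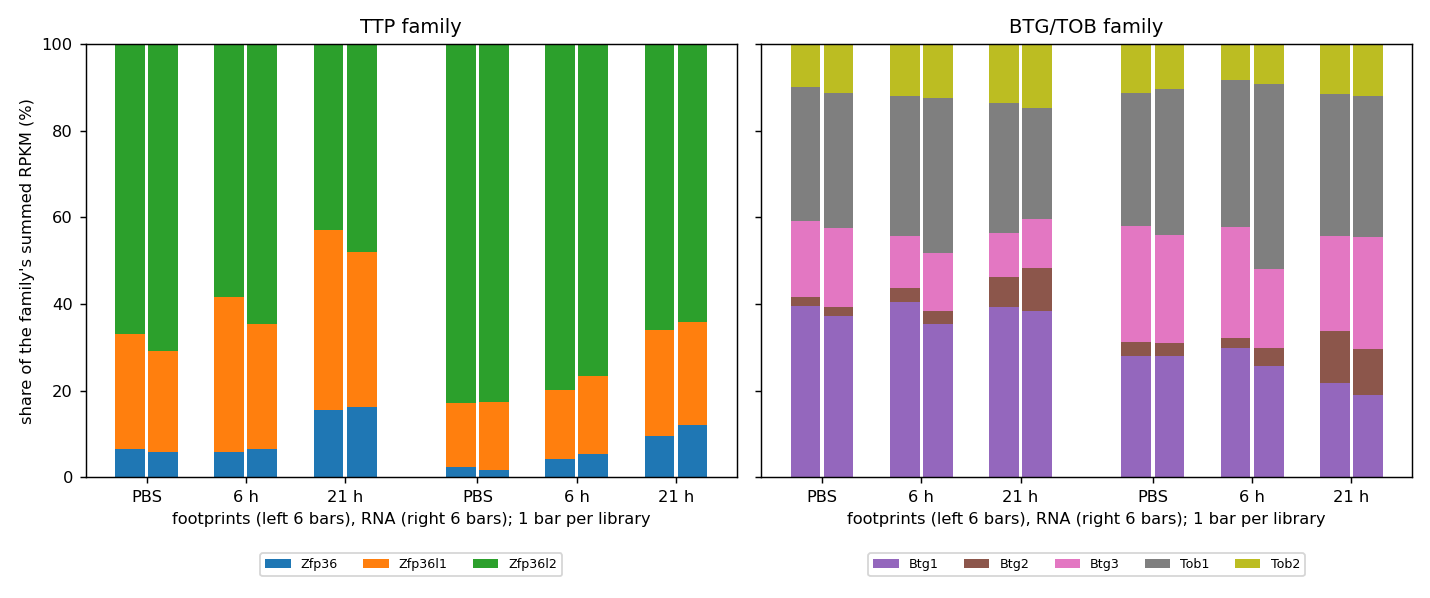
Stacked bars of each member's share (%) of the summed RPKM of the TTP family (left) and the BTG/TOB family (right), with 1 bar per library, the 6 footprint libraries first and the 6 RNA libraries after them, in the order PBS, 6 h, 21 h. In footprints Zfp36l2 takes 66.8 and 70.7% of the TTP family with PBS and 42.9 and 48.0% at 21 h.

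Btg2 (ENSMUSG00000020423), whose product is an antiproliferative partner of Cnot7 and Cnot8, had the largest change of the 8 members in both assays at 21 h. Its footprints were 6.08 and 5.43 RPKM with PBS, 13.0 and 10.6 at 6 h, and 41.8 and 61.6 at 21 h. No library of a group reached the next, and the libraries at 21 h were the furthest apart. The log2 fold change was 0.96 at 6 h (SE 0.21, adjusted p = 0.0542, called in 5 of 16 alternatives) and 3.00 at 21 h (SE 0.21, adjusted p = 3.1e-05), an 8.00-fold rise and the 10th largest of 10383 transcripts. Btg2 RNA was 1.63 and 1.76 RPKM with PBS, 1.65 and 3.16 at 6 h, and 15.5 and 13.4 at 21 h. In RNA 1 library at 6 h lay among the PBS libraries and the other above them, so that the 6 h value of 0.41 (SE 0.28, adjusted p = 0.612) is poorly determined. The rise of the RNA at 21 h was 2.68 (SE 0.28, adjusted p = 0.000322), the 9th largest of 9443.

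Btg1 (ENSMUSG00000036478), the close relative of Btg2, started from the highest footprint level. Its footprints were 121.4 and 98.3 RPKM with PBS, 158.3 and 127.6 at 6 h, and 234.3 and 238.9 at 21 h. The replicates differed most at the lower levels and hardly at all at 21 h. The log2 fold change was 0.36 at 6 h (adjusted p = 0.155) and 1.08 at 21 h (SE 0.13, adjusted p = 0.00039). Btg1 RNA was 14.8 and 17.4 RPKM with PBS, 21.7 and 20.4 at 6 h, and 28.4 and 23.8 at 21 h, with no overlap of either Cis group with PBS. The rise of the RNA at 21 h was 0.60 (SE 0.15, adjusted p = 0.020). This RNA call was lost without PBS replicate 1 (0.49, adjusted p = 0.134), PBS replicate 2 (0.69, adjusted p = 0.051) or 21 h replicate 1 (0.44, adjusted p = 0.124), and with quantile normalization or without the variance trend.

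Btg3 (ENSMUSG00000022863), which binds the same deadenylases and is less studied in mRNA decay, was the member whose footprint and RNA changes differed most at 21 h. Its footprints were 53.6 and 47.7 RPKM with PBS, 46.8 and 48.2 at 6 h, and 61.0 and 71.6 at 21 h. The 6 h libraries lay with the lower PBS library and those at 21 h above all others. The rise at 21 h was 0.35 (95% interval 0.081 to 0.61, adjusted p = 0.0438), and the call was lost in 10 of 16 alternatives. Among them were leaving out PBS replicate 1 (0.41, adjusted p = 0.0709), PBS replicate 2 (0.28, adjusted p = 0.19), 6 h replicate 1 (0.35, adjusted p = 0.0699), 6 h replicate 2 (0.35, adjusted p = 0.0703) or 21 h replicate 2 (0.24, adjusted p = 0.192). Btg3 RNA was 14.1 and 15.6 RPKM with PBS, 18.5 and 14.4 at 6 h, and 28.5 and 32.5 at 21 h. The RNA at 21 h lay far above PBS in both libraries, a 1.91-fold rise (0.93 on the log2 scale, SE 0.16, adjusted p = 0.0028) that was called in all 16 alternatives.

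Tob1 (ENSMUSG00000037573) and Tob2 (ENSMUSG00000048546) carry a C-terminal extension that contacts Pabpc1, and they were the members called at 6 h in footprints. Tob1 footprints were 95.2 and 82.0 RPKM with PBS, 126.0 and 128.8 at 6 h, and 178.6 and 159.5 at 21 h. The groups formed separate steps. Tob1 footprints rose by 0.51 on the log2 scale at 6 h (SE 0.10, adjusted p = 0.0427) and 0.89 at 21 h (SE 0.10, adjusted p = 0.000304). Tob1 RNA was 16.2 and 20.9 RPKM with PBS, 24.4 and 33.7 at 6 h, and 42.4 and 40.8 at 21 h, again without overlap. The RNA change was 0.70 at 6 h (SE 0.17, adjusted p = 0.255) and 1.07 at 21 h (SE 0.17, adjusted p = 0.0025).
Tob2 footprints were 30.3 and 29.8 RPKM with PBS, 47.4 and 44.7 at 6 h, and 81.0 and 91.8 at 21 h. The PBS libraries were almost identical and each later group lay clear of the one before. Tob2 footprints rose by 0.59 at 6 h (SE 0.11, adjusted p = 0.0385) and 1.47 at 21 h (SE 0.11, adjusted p = 4.68e-05). Tob2 RNA was 5.97 and 6.39 RPKM with PBS, 6.07 and 7.30 at 6 h, and 15.0 and 15.0 at 21 h. The RNA at 6 h overlapped PBS as deposited (0.16 after scaling, adjusted p = 0.761), and at 21 h it had risen by 1.13 (SE 0.18, adjusted p = 0.0021).
The calls of Tob1 and Tob2 at 6 h were each lost in 7 of 16 alternatives. Leaving out any of the 4 PBS and 6 h libraries lost both calls, so that 0 members passed, beside at most 0.289% of all transcripts. Leaving out 21 h replicate 1 or 2 gave 4, with Btg2 and Zfp36l1 added, beside 3.74 and 3.83% of all transcripts. Without PBS replicate 1 the values were 0.59 for Tob1 (adjusted p = 0.0961) and 0.57 for Tob2 (adjusted p = 0.137). Without PBS replicate 2 they were 0.42 (adjusted p = 0.169) and 0.60 (adjusted p = 0.137). Without 6 h replicate 1 they were 0.53 (adjusted p = 0.194) and 0.55 (adjusted p = 0.197), and without 6 h replicate 2 they were 0.49 (adjusted p = 0.242) and 0.63 (adjusted p = 0.216). The size of the change thus moved little while the call did not hold.

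Between 6 and 21 h, 7 members rose in footprints, Btg3 among them from a 6 h value of -0.10 against PBS, where 30.7% of all transcripts were called (15% higher and 15.7% lower), and Zfp36l2 (0.07, 95% interval -0.17 to 0.32) was the exception. In RNA 5 members rose, where 15.7% were called (7.53% higher and 8.21% lower), namely Btg2, Zfp36, Tob2, Zfp36l1 and Btg3. For Zfp36 footprints the step from 6 to 21 h was 1.80 (SE 0.17, adjusted p = 0.000281), beside 0.38 from PBS to 6 h, with the 6 h libraries shared by both values. For Tob1 the corresponding steps were 0.38 (SE 0.10, adjusted p = 0.0212) and 0.51. Zfp36 thus had the larger part of its rise after 6 h. For Tob1 the 95% intervals of the steps, 0.15 to 0.61 after 6 h and 0.28 to 0.74 before it, overlap, so which is larger is not resolved. The difference between members was not tested.

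The TE compares the change in footprints with the change in RNA. No member had a TE change that passed at 6 h, 21 h or between the time points (limma interaction over the 12 libraries), where 0%, 0.409% and 1.01% of 9295 transcripts were called (at 21 h 0.258% with a higher and 0.151% with a lower TE), and none passed in the alternatives run. At 6 h, 710 transcripts had an unadjusted p under 0.05, among them Zfp36l1 and Tob2 with higher values. At 21 h the members at an unadjusted p under 0.05 were Btg3, with a log2 change in TE of -0.59 (95% interval -1.02 to -0.15, adjusted p = 0.259), and Btg1, with 0.48 (95% interval 0.031 to 0.93, adjusted p = 0.364). The intervals of the other members at 21 h differed in width, from -0.08 to 0.55 for Zfp36l2 and from -0.49 to 1.12 for Btg2, and changes within a member's own interval were not resolved. Between 6 and 21 h the member at an unadjusted p under 0.05 was Btg1 (0.56, adjusted p = 0.254). For Btg3 the TE per replicate number was 3.81 and 3.06 with PBS, 2.53 and 3.35 at 6 h, and 2.14 and 2.20 at 21 h, with both 21 h values below the others.
The level of the TE set the members apart more than its change. Zfp36l2 had a TE of 1.03 ± 0.0702 with PBS, 1.35 ± 0.0277 at 6 h and 1.17 ± 0.00958 at 21 h (mean ± SD, n = 2), against medians over all transcripts of 3.23 to 3.68 in the libraries. Btg1 had the highest mean TE with PBS (6.92 ± 1.82), but its values there (8.21 and 5.64) overlapped those of Tob1 (5.89 and 3.92). At 21 h Btg1 was the highest without overlap (9.14 ± 1.26). At 6 h Btg1 (6.79 ± 0.735), Tob2 (6.96 ± 1.2) and Btg2 (5.63 ± 3.20) overlapped. The other members lay between 2.03 ± 0.204 for Zfp36l1 and 4.90 ± 1.40 for Tob1 with PBS. Replicate numbers do not pair footprint with RNA libraries, so these ratios describe levels and the test above does not use them.

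**Figure D4:**
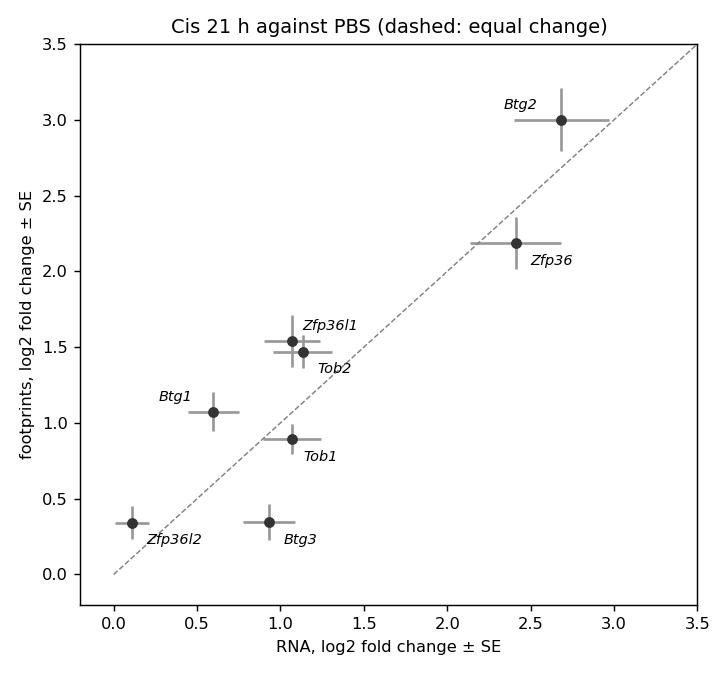
Log2 fold change at 21 h against PBS in RNA (x axis) and footprints (y axis) of the 8 members, with bars of ± 1 SE from limma and a dashed line of equal change. Btg1 (0.60 in RNA, 1.08 in footprints) lies above the line and Btg3 (0.93, 0.35) below it.

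The members share features that were not used to choose them. Their genes span 2.445 (Zfp36) to 17.322 kb (Btg3) in RefSeq, beside a median of 22.6 kb for transcripts tested in footprints, and Btg3, the longest, is at the 41.1st percentile. Length moved with the result over all genes. At 21 h, 29.4% of the 4242 transcripts from genes no longer than 17.3 kb were called higher in footprints, against 11.4% of the 6085 longer ones. In RNA the shares called higher were 16.8% and 7.94%. The shares called lower went the other way, 7.14% of the shorter and 29.4% of the longer in footprints, and 5.9% and 16.6% in RNA. Against this background of short genes, 8 of 8 members in footprints and 7 of 8 in RNA were called higher. The part of gene length in the members' rises was not tested. Their coding sequences run from 474 nt (158 codons, Btg2) to 1452 nt (484 codons, Zfp36l2), beside a median of 1350 nt. Btg1 is 10.3% coding, with 4169 nt after the coding sequence of 5001 nt in all, at the 94.5th percentile for that stretch, whereas Btg3 is 53.5% coding. Reads that match more than 1 paralog may have been divided or dropped in the counting, and this was not tested for the closely related pairs Btg1 and Btg2, Tob1 and Tob2, and Zfp36l1 and Zfp36l2.

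The genes of the machinery that these regulators recruit are described beside the background at 21 h, 18.9% of all transcripts called higher and 20.2% lower in footprints. Neither these lists nor the later ones were matched for gene length, and longer genes were called lower more often. Of 15 genes of CCR4-NOT and other deadenylases, 4 had more footprints and 4 fewer, with a median log2 fold change of -0.067. Cnot3 (0.71), Cnot11 (0.69) and Cnot9 (0.64), noncatalytic CCR4-NOT subunits, rose. Parn (-1.08), Pan3 (-0.93) and the catalytic subunit Cnot6l (-0.87), which belong to the nucleases and their cofactors, fell. The direct partners of the BTG/TOB proteins did not pass the test. Cnot7 had 43.9 ± 3.12 footprint RPKM with PBS and 40.6 ± 6.75 at 21 h (-0.15, adjusted p = 0.383), and Cnot8 had 74.6 ± 8.11 and 94.8 ± 1.82 (0.31, adjusted p = 0.0504). Cnot1, the scaffold, had 27.6 ± 0.522 and 22.8 ± 0.182 (-0.31, adjusted p = 0.0865). Pabpc1 had 189.3 ± 6.85 and 221.1 ± 3.34 (0.19, adjusted p = 0.104), and of 5 poly(A)-binding genes only Paip2b, an inhibitor of Pabpc1, was called (0.99, adjusted p = 0.000645).
Downstream of deadenylation, 6 of 17 genes of decapping and 5′ decay had more footprints and 2 fewer. Edc4 (0.89), Lsm1 (0.68) and Lsm3 (0.65) rose, and Lsm6 (-0.77) and Dcps (-0.70) fell. Of 15 genes of the RNA exosome, its cofactors and the separate exonuclease Dis3l2, 3 were higher and 2 lower. Exosc2 (0.51), Exosc1 (0.49) and Exosc10 (0.38) rose, and Exosc8 (-0.30) and the uridylated RNA exonuclease Dis3l2 (-2.76) fell. Of 9 genes of microRNA silencing, Dgcr8 (0.57) rose and Ago2 (-0.71) and Drosha (-0.66) fell. In RNA at 21 h, where 11.6% of all transcripts were called higher and 12.2% lower, 1 deadenylase gene was higher, Cnot9 (0.51), and 3 were lower, Cnot6l (-1.14), Parn (-0.91) and Pan3 (-0.68). Paip2b RNA was also higher (0.89). Of the decapping genes 4 were higher in RNA, led by Edc4 (1.25), Lsm3 (0.96) and Lsm1 (0.82), and Lsm6 (-0.62) was lower. The 3 of 14 exosome genes that were higher in RNA were Dis3 (0.60), Exosc10 (0.55) and Exosc2 (0.52). In microRNA silencing, Dgcr8 RNA (0.56) was higher, and Ago2 (-0.71) and Drosha (-0.44) were lower.

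Of 20 genes of other proteins that bind AU-rich or 3′ elements, 9 had fewer footprints at 21 h and the other 11 were not called, with a median of -0.26. Among the 9, Igf2bp3 fell by 1.33, and Igf2bp2 fell from 61.1 ± 11.3 to 30.8 ± 1.15 RPKM (mean ± SD, n = 2). Hnrnpd, which encodes the AU-rich element binding protein AUF1, fell by 0.76 (SE 0.08, adjusted p = 0.000264) and was the gene of this list called at 6 h. Its call at 6 h was lost without the variance trend, where 0% of all transcripts were called. In RNA 6 of the 20 were lower, led by Igf2bp3 (-1.05), Hnrnpd (-0.81) and Igf2bp2 (-0.71), and Rc3h2 (0.54) was higher.
Among 14 signalling partners tested, 2 were higher and 5 lower in footprints at 21 h. Dusp1 inactivates p38 MAP kinase, the kinase upstream of Mapkapk2, which phosphorylates TTP and so holds it on 14-3-3 proteins. Its footprints were 38.9 and 45.6 RPKM with PBS, 92.9 and 85.0 at 6 h, and 431.4 and 448.8 at 21 h. It rose by 1.05 at 6 h (SE 0.11, adjusted p = 0.0062) and 3.33 at 21 h (SE 0.11, adjusted p = 1.11e-06), more than any member. Ppp2ca, the catalytic subunit of the phosphatase that dephosphorylates TTP, rose by 0.35, while Rps6ka3 (-0.82), Mapkapk2 (-0.47) and the 14-3-3 gene Ywhaz (-0.46) fell. In RNA Dusp1 (3.62) was higher, and 4 of 13 partners were lower, led by Rps6ka3 (-1.10), Rps6ka1 (-0.63) and Ywhaz (-0.39).

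**Figure D5:**
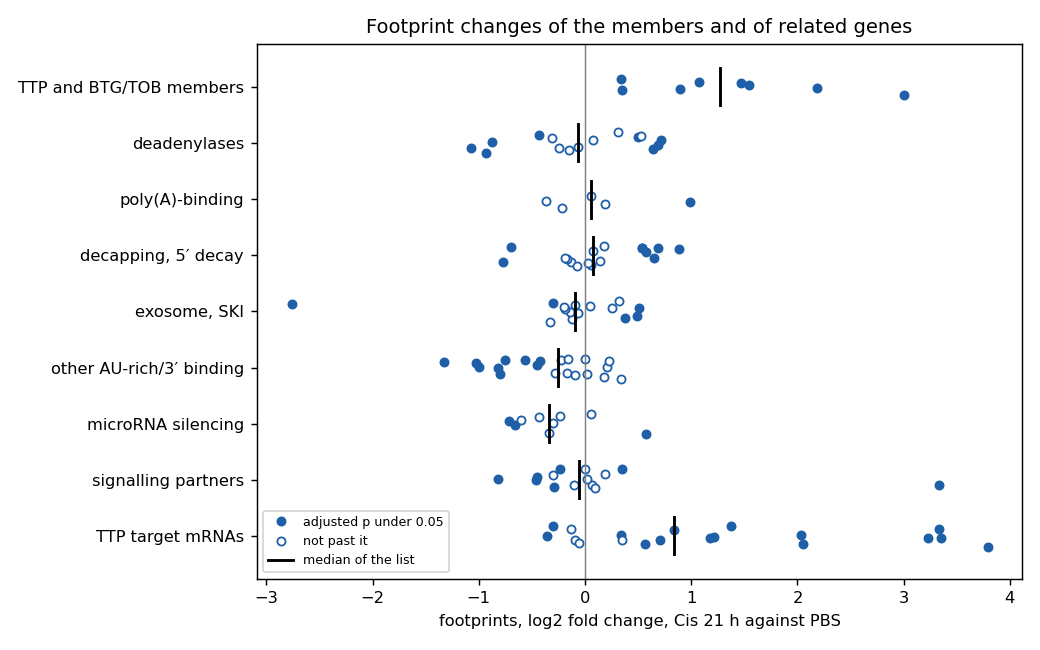
Log2 fold change in footprints at 21 h against PBS (x axis) of each tested gene (points, filled where the adjusted p is under 0.05) in the members and 8 related gene lists (rows), with a black bar at the median of the list. The median is 1.27 for the members, -0.26 for other AU-rich or 3′ binding proteins and 0.84 for mRNAs known as TTP targets.

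The mRNAs known as targets of the TTP family are, by that role, mRNAs that TTP is known to destabilise. Of 19 tested, 13 had more footprints at 21 h and 2 fewer, with a median of 0.84, beside 18.9% of all transcripts called higher and 20.2% lower. In RNA 11 were higher and 1 lower, beside 11.6% and 12.2% of all transcripts. The filter takes the mean over all 3 groups, so a target nearly absent with PBS entered only through the Cis libraries. The change of such a target had to be a rise. These targets were not counted and were not taken out of the numbers called or the median. Ptgs2, the inducible cyclooxygenase, had footprints of 62.9 and 64.6 RPKM with PBS, 84.6 and 81.1 at 6 h, and 640.5 and 704.1 at 21 h, a rise at 21 h of 3.35 (SE 0.09, adjusted p = 9.33e-07). Ier3, an immediate early survival gene, had 96.5 and 92.5, then 151.0 and 146.3, then 392.2 and 405.0 RPKM, rising by 0.64 at 6 h (adjusted p = 0.0152) and 2.03 at 21 h (adjusted p = 3.39e-06). These groups were separate at each time.
The cytokine Il6 rose by 3.79 in footprints at 21 h (SE 0.45, adjusted p = 0.000405), from a mean of only 3.5 reads with PBS to 44. Its RNA had no read in the PBS and 6 h libraries and 4.51 and 4.61 RPKM at 21 h. Il6 RNA thus passed the filter only through the 21 h libraries, and its RNA change had to be a rise. The chemokine Cxcl1 rose in footprints from 67.3 ± 17.2 to 111.1 ± 6.71 RPKM (0.71, adjusted p = 0.0105) and in RNA by 1.64 (SE 0.12, adjusted p = 5.22e-05). Fos RNA, from another immediate early gene, rose by 3.53 (SE 0.25, adjusted p = 5.21e-05). Myc had 137.8 ± 4.00 and 132.6 ± 4.19 RPKM in footprints (-0.09, adjusted p = 0.522), while Ccl2 (-0.36) and Ccnd1 (-0.30, and -0.38 in RNA) fell. Tnf, the founding TTP target, had a mean of 1 footprint read with PBS and 3.5 at 21 h and was too low to be tested.
At 6 h, Dusp1, Cdkn1a, Fos and Ier3 of these 19 were higher in footprints, beside 1.05% of all transcripts. Without the variance trend 0 of 10383 transcripts were called in footprints at 6 h, so these calls were lost. None of the 19 was called in RNA, where the background was 0% (limma, Benjamini-Hochberg adjustment). Dusp1 belongs to this list as well as to the signalling partners.

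Across the 12 libraries, with each assay centred on its own mean, the members also varied together to different degrees. These correlations are descriptions over libraries that share the 3 treatment groups, and 5574 transcripts that averaged 5 RPKM or more in each assay were compared. Btg2 RNA averaged 1.69 RPKM with PBS, 2.41 at 6 h and 14.5 at 21 h, so Btg2 passed this limit only through the 21 h libraries and its pattern had to be a rise at 21 h. Its nearest transcripts were Tob2, Utp4 and Atf3 (Pearson's r = 0.994, 0.99 and 0.989), the last encoding a stress-induced transcription factor. Tob2 was nearest to Btg2, Etv3 and Ier3 (r = 0.994, 0.993 and 0.989). Zfp36l1 was nearest to Rpa2, Zwint and Tob2 (r = 0.974, 0.973 and 0.969), and Tob1 to Hexim1, Cinp and Cdc25a (r = 0.98, 0.976 and 0.97). Btg1 was nearest to Psmd8, Itpa and Terf2ip (r = 0.97, 0.966 and 0.959), and Btg3 to Ncaph, Nup160 and Chd8 (r = 0.972, 0.957 and 0.957). Each of these members had at least 3 transcripts with an r above 0.95. They were picked as the highest of 5574, so their r does not measure a link to the member. Zfp36l2 had the weakest nearest pattern, Cdkn1b (r = 0.91), followed by Zscan25 and Alad (r = 0.889 and 0.884), and the least similar pair of members was Btg3 and Zfp36l2 (r = 0.397). Zfp36 was below the RNA limit of 5 RPKM and was not compared.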

How the data were processed

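KPC cells were profiled by ribosome profiling and RNA-seq, with 2 libraries for each of PBS, Cis for 6 h and Cis for 21 h. Groups and replicate numbers came from the labels, and the dose from the study's methods. The RPKM values deposited by the authors, 1 file per library, are for 1 transcript per gene and relate to its coding length (footprints) or its full length (RNA). Per the labels' processing notes, cutadapt, STAR and GRCm39 were used. Versions, counting and the treatment of reads that match several genes are not given in the sources used here. Multiplied by length, 100% of values were whole multiples of 1 read (tolerance 0.001), which gave the reads behind each value. Reads carry no molecular identifiers used here, so read numbers cover counting error only. A transcript absent from a file was taken as 0.

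RPKM values were scaled within an assay by median-of-ratios, and transcripts with a mean of at least 1 were kept. Values on the scale log2(RPKM + 0.5) were fitted with limma 3.58.1 in R 4.3.3 (3 groups in 1 model, eBayes with trend), two-sided, with Benjamini-Hochberg adjustment over all transcripts tested. For TE, the contrast was the footprint change minus the RNA change in a 6-group model of all 12 libraries. The smallest p that an exact permutation test of 2 against 2 libraries can give is 0.333, so none was used. Levels are deposited RPKM, mean ± SD. Members and gene lists were chosen with earlier results of these data known. All 8 members are named throughout. In each list the called genes that rose and fell the most at 21 h, 3 each way, are named (apart from an item not reported here), Dusp1, Cnot1, Cnot7, Cnot8, Pabpc1, Il6, Tnf, Ier3, Myc, Ptgs2 and Cxcl1 always, and for each member the 3 transcripts with the highest Pearson's r. Hnrnpd and the genes called at 6 h were named after their values were seen. No replicate pair was close enough to be a single library (chi-square over degrees of freedom 1.46 to 4.12).

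The settings varied were the pseudocount (0.1 or 1), the filter (none, or a mean of 5), the scaling (none or quantile), the variance trend (left out), the groups in the model (only those compared), a replicate block, voom on the recovered reads, family shares from reads, and each library left out in turn. The TE ratio per replicate number was added after seeing the data. Tests were also run on simulated reads with the same spread setting for every gene and library. That run does not give the rate of false calls in these libraries. Gene spans and promoter windows are from RefSeq on GRCm38.p6. Spans were used as lengths only. Files were read with Python 3.11.15 and pandas 2.3.3.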

Additional observations from a re-analysis of the deposited data

Results flagged for a closer look

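The change after Cis differed between the time points in 12 member values, by a test of 21 h against 6 h within the same model (limma, Benjamini-Hochberg adjustment over all transcripts). In footprints the difference on the log2 scale was 2.04 for Btg2, 1.8 for Zfp36, 0.88 for Tob2, 0.76 for Zfp36l1, 0.71 for Btg1, 0.45 for Btg3 and 0.38 for Tob1. In RNA it was 2.27 for Btg2, 1.44 for Zfp36, 0.97 for Tob2, 0.89 for Zfp36l1 and 0.73 for Btg3. The time points share their PBS libraries, which cancel in this difference.

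Some of these differences rested on single libraries. For Tob1 footprints the call was lost without 6 h replicate 1 (0.37, adjusted p = 0.109), 6 h replicate 2 (0.40, adjusted p = 0.0937) or 21 h replicate 1 (0.30, adjusted p = 0.0966). For Btg3 footprints it was lost without 6 h replicate 1 (0.43, adjusted p = 0.101), 6 h replicate 2 (0.47, adjusted p = 0.0833) or 21 h replicate 2 (0.33, adjusted p = 0.0991). For Zfp36l1 footprints it was lost without 6 h replicate 2 (0.56, adjusted p = 0.0817) or 21 h replicate 1 (0.59, adjusted p = 0.0574).
In RNA the call of Btg3 was lost without 6 h replicate 2 (0.55, adjusted p = 0.0754) or 21 h replicate 2 (0.67, adjusted p = 0.0777), and that of Zfp36 without 21 h replicate 2 (1.27, adjusted p = 0.0688). Those of Btg2 and Tob2, in both assays, of Zfp36 and Btg1 in footprints and of Zfp36l1 in RNA were kept without any 1 library.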

How the results depend on the processing

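Of 29 member values called in the report, 19 kept their call in every alternative run and none changed sign. Members called in footprints at 6 h numbered 2, beside 2.04% of all transcripts. They numbered 0 without a filter on low values, without the variance trend or with the replicate block (beside 0.122, 0 and 0.356%), and 4 with a mean RPKM of at least 5, with quantile normalization, with only the groups compared or with voom (beside 4.17, 2.39, 4.26 and 12.3%). Leaving out 1 library gave 0 to 4 of these (beside 0 to 3.83%), 6 to 7 in footprints at 21 h (27 to 36.1%), 4 to 7 between the time points (15.4 to 28.8%, 4 without 6 h replicate 2), and in RNA 6 to 7 at 21 h (11.2 to 24.4%) and 3 to 5 between the time points (7.24 to 12.7%, 3 without 21 h replicate 2). In RNA at 6 h 0 were called, and 2 with voom (beside 2.43%). The replicate numbers correlated between -0.081 and 0.068 and so do not pair the libraries. The block changed no member call other than those of Tob1, Tob2 and, in footprints at 21 h, Btg3. Values near 0 that changed sign were Zfp36l2 footprints between the time points with quantile normalization (-0.0093), and, without scaling, the TE of Btg1 at 6 h (0.0020) and of Tob1 between the time points (-0.12). Leaving out 1 library also turned the sign of Zfp36l2 RNA at 6 h (-0.090 to 0.0067), Btg1 RNA between the time points (-0.011 to 0.31), the TE at 6 h of Btg1 (-0.23 to 0.074) and Tob1 (-0.41 to 0.041), and the TE between the time points of Tob1 (-0.22 to 0.23), Zfp36l1 (-0.33 to 0.072), Btg2 (-0.62 to 0.15) and Tob2 (-0.21 to 0.034), none of them called. Footprint shares from reads, not weighted by length, with PBS and at 21 h were 4.49 and 12.6% for Zfp36, 76.1 and 54.8% for Zfp36l2, and 1.22 and 5.21% for Btg2. The causes were not tested. With 2 libraries per group and 8 to 22 reads for Zfp36 and Btg2 with PBS, small changes could not be resolved.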
